A study of Arabidopsis thaliana with 18 samples.

Results

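The 10 genes described here encode enzymes and enzyme subunits of chlorophyll synthesis in Arabidopsis thaliana, together with HEMA1, which acts at the entry of the pathway. They were chosen by gene ID, as HEMA1, GUN4, CHLH, CHLD, CHLI1, CHLM, CRD1, PORB, PORC and CAO, and they are 10 of the 32436 gene loci counted. With them came 50 of 127555 annotated splice junctions, 10 of 4007 unannotated junctions and 72 of 170526 exon bins, an exon bin being a stretch of exon that annotated transcripts share or differ in. The low level of HEMA1 in prl1-2 seedlings was known when the genes were listed, so the gene levels of prl1-2 and Col-0 are given for HEMA1 as a description, and nothing is supported with them.

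RNA of whole seedlings was read as full-length transcripts by PacBio Iso-Seq, and reads were counted per gene, junction and exon bin. Seedlings were stratified for 3 days and grown at 22 °C in constant light of 55 µmol m-2 s-1, and about 60 mg of tissue was pooled from harvests taken every 2 h over 24 h, on day 11 by one label and at 10 days of age by another. Pooling removes time of day from every library, so no time course can be read. There were 6 genotypes with 3 libraries each, described as independent biological replicates: xct-2 carrying the transgene XCT::XCT, xct-2, xct-1 carrying the transgene XCT::SpXAP5, xct-1, prl1-2 and the wild type Col-0. XCT (XAP5 CIRCADIAN TIMEKEEPER) and PRL1 encode nuclear proteins, and PRL1 belongs to a complex that associates with the spliceosome. Nothing in the labels says how many transgenic lines were used or which cells express the transgenes.

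Chlorophyll is made in plastids from glutamate through the tetrapyrrole pathway, which also yields haem. Glutamyl-tRNA reductase opens the pathway, and magnesium chelatase directs it to chlorophyll. A methyltransferase, a cyclase and a light-dependent reductase complete the ring system. An oxygenase then acts on part of the chlorophyllide a, on the way to chlorophyll b. In green seedlings these genes are transcribed in light, and their shared induction is a classic marker of chloroplast development.

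The libraries held 459150 to 1046273 gene reads. Each gene read carried 7.05 to 11.5 junction reads on average, depending on the library. The 4 libraries under 8 were replicate 2 of xct-2, xct-1, prl1-2 and Col-0, and the highest was replicate 3 of Col-0. The genotype means of this ratio lay between 8.95 (prl1-2) and 10.7 (xct-1 XCT::SpXAP5). PRL1 had 0 reads in all 3 prl1-2 libraries, against 33, 26 and 10 in Col-0. XCT had 654, 284 and 334 reads in xct-2 XCT::XCT, 4, 8 and 4 in xct-2, and 8, 16 and 2 in Col-0, counts too low to tell xct-2 and Col-0 apart by their own gene. All 4 markers of photosynthetic shoot cells were present in every library, and of 6 root markers PHT1;1 was present in every library and the other 5 were at 0 in 3 to 12 libraries.

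HEMA1 (AT1G58290, chromosome 1, 21623726 to 21626200 on the minus strand, TAIR10) encodes glutamyl-tRNA reductase, the rate-limiting enzyme of the whole pathway. Its levels, in reads per 1000000 gene reads after TMM scaling of the libraries (CPM), were 494, 293 and 438 in xct-2 XCT::XCT and 241, 203 and 214 in xct-2. Every library with the transgene lay above every xct-2 library. HEMA1 had 468, 421 and 410 CPM in xct-1 XCT::SpXAP5 (mean 433) and 462, 369 and 477 CPM in xct-1, which overlapped. It had 53.0, 49.6 and 65.4 CPM in prl1-2, from 24, 45 and 51 reads, against 435, 287 and 333 CPM in Col-0, from 470, 245 and 199 reads. The prl1-2 libraries were the lowest of the 18 and the xct-2 libraries the next lowest. Ordered by mean, HEMA1 stood highest in xct-1, then xct-1 XCT::SpXAP5, xct-2 XCT::XCT and Col-0, 4 genotypes whose library ranges overlapped. In bulk tissue, fewer cells that express a gene and less RNA of it per cell cannot be told apart.

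**Figure D1:**
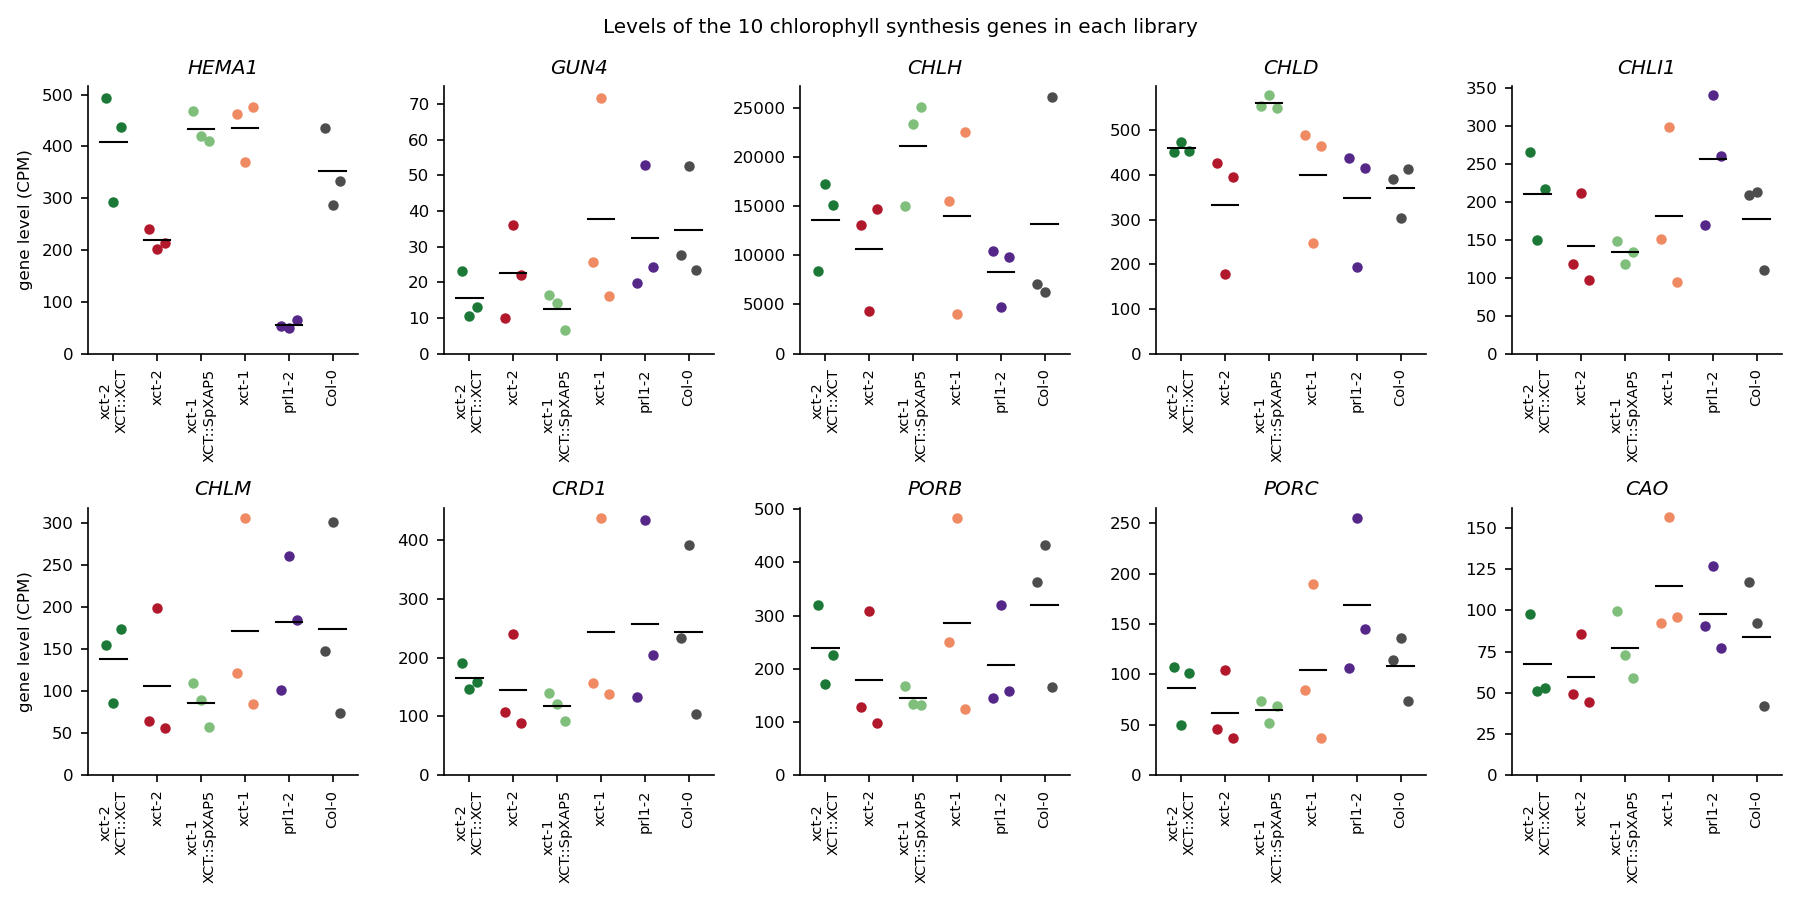
Levels of the 10 genes in CPM, 1 panel per gene, each point a library and each bar the mean of 3, by genotype with Col-0 on the right. HEMA1 averaged 56.0 CPM in prl1-2 and 219 CPM in xct-2 against 352 CPM in Col-0, whereas the libraries of most other genes overlap between genotypes.

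The log2 fold change of HEMA1 was -2.65 (SE 0.373) in prl1-2 against Col-0, a mean of 56.0 ± 8.31 CPM against 352 ± 75.5 CPM (SD, n = 3 each), a 6.28-fold lower mean. Genes are called here when their adjusted p was under 0.05 in edgeR's quasi-likelihood test over all 10810 genes tested. In prl1-2 against Col-0 that was so for 0.241% of all genes, 0.102% lower, and for none of the 9 members other than HEMA1; the value of HEMA1 was known when it was listed, and no test of it in prl1-2 is given. In xct-2 the mean of HEMA1 was 219 ± 19.8 CPM, and its log2 fold change against Col-0 was -0.68 (SE 0.348), with an adjusted p of 1 in edgeR's quasi-likelihood test. In xct-2 XCT::XCT the mean was 408 ± 104 CPM, a log2 difference from xct-2 of 0.90 (SE 0.349), unadjusted p = 0.0187 and adjusted p = 0.884 by edgeR's quasi-likelihood test.

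GUN4 (AT3G59400, chromosome 3) encodes a porphyrin-binding protein that stimulates magnesium chelatase, and it was the member read least, with 433 reads over the 18 libraries. It had 23.2, 10.5 and 13.0 CPM in xct-2 XCT::XCT and 10.1, 36.0 and 22.1 CPM in xct-2. It had 16.6, 14.3 and 6.55 CPM in xct-1 XCT::SpXAP5 and 25.7, 71.7 and 16.1 CPM in xct-1. It had 19.9, 52.9 and 24.4 CPM in prl1-2, against 27.7, 52.7 and 23.5 CPM in Col-0. The xct-2 XCT::XCT libraries all lay below those of Col-0 (log2 difference -1.13, SE 0.577), which was not called. Replicate 2 was the highest library in each of xct-2, xct-1, prl1-2 and Col-0, and these are the 4 libraries with the fewest junction reads per gene read. The largest log2 difference was -1.62, for xct-1 XCT::SpXAP5 over xct-1, with an adjusted p of 0.578 in edgeR's quasi-likelihood test.

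Magnesium chelatase, which inserts magnesium into protoporphyrin IX, has 3 kinds of subunit. CHLH (AT5G13630, chromosome 5), the large porphyrin-binding subunit, was read most, with 184591 reads over the 18 libraries. It had 8430, 17260.2 and 15124 CPM in xct-2 XCT::XCT and 13029, 4351 and 14655 CPM in xct-2. In prl1-2 it had 10411, 4730.1 and 9857 CPM, against 7089, 6225 and 26097 CPM in Col-0. The 3 Col-0 libraries spanned the range of all other genotypes but for the lowest libraries of xct-2, xct-1 and prl1-2. CHLH averaged 21120 ± 5350 CPM in xct-1 XCT::SpXAP5 and 14028 ± 9362 CPM in xct-1 (SD, n = 3 each).

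CHLD (AT1G08520, chromosome 1), the AAA-type subunit that works as a complex with CHLI1, had 452, 474 and 453 CPM in xct-2 XCT::XCT and 427, 179 and 395 CPM in xct-2. All 3 libraries with the transgene were above all 3 of xct-2 (log2 difference 0.46, SE 0.428), and also above all 3 of Col-0 (0.31, SE 0.427). Neither difference was called. It had 555, 579 and 549 CPM in xct-1 XCT::SpXAP5 and 489, 248 and 466 CPM in xct-1, again without overlap. The log2 difference was 0.49 (SE 0.428, adjusted p = 0.686 in edgeR's quasi-likelihood test). The share of all genes whose levels do not overlap in these contrasts is not given here. In prl1-2 it had 437, 193 and 416 CPM, against 390.3, 305 and 414 CPM in Col-0, which overlapped. CHLI1 (AT4G18480, chromosome 4), the ATPase subunit, had 170.1, 341 and 260.4 CPM in prl1-2, against 209, 213 and 111 CPM in Col-0. Its xct-2 XCT::XCT libraries had 265, 150 and 217 CPM and its xct-2 libraries 119, 211 and 97.7 CPM. The groups overlapped in both comparisons.

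CHLM (AT4G25080, chromosome 4) methylates magnesium protoporphyrin IX, and CRD1 (AT3G56940, chromosome 3) is the catalytic subunit of the cyclase that forms the fifth ring. CHLM had 64.4, 199 and 56.0 CPM in xct-2, 102, 260.3 and 185 CPM in prl1-2, and 147, 301 and 73.7 CPM in Col-0. CRD1 had 107, 241 and 88.6 CPM in xct-2, 133, 435 and 205 CPM in prl1-2, and 233, 391 and 104 CPM in Col-0. Both were highest in replicate 2 of each of these genotypes, and all groups overlapped.

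PORB (AT4G27440, chromosome 4) and PORC (AT1G03630, chromosome 1) encode light-dependent protochlorophyllide oxidoreductases, and CAO (AT1G44446, chromosome 1) encodes chlorophyllide a oxygenase, which makes chlorophyll b. PORB had 129, 308 and 97.7 CPM in xct-2, 146, 319.8 and 158 CPM in prl1-2, and 363, 433 and 166 CPM in Col-0. PORC had 45.5, 104 and 36.5 CPM in xct-2, 106, 255 and 145 CPM in prl1-2, and 115, 136 and 73.7 CPM in Col-0. CAO had 49.3, 85.6 and 44.3 CPM in xct-2, 90.5, 127 and 77.0 CPM in prl1-2, and 117, 92.5 and 41.9 CPM in Col-0. For PORB and PORC, replicates 1 and 3 of xct-2 lay below the lowest Col-0 library and replicate 2 lay inside the Col-0 range, and for CAO all 3 xct-2 libraries lay inside it.

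The lines carrying a transgene overlapped with the lines without it for these later enzymes. PORB had 319, 171 and 226 CPM in xct-2 XCT::XCT, set beside the 129, 308 and 97.7 CPM of xct-2. CHLM had 155, 85.4 and 173 CPM in xct-2 XCT::XCT and CAO 98.0, 51.2 and 53.0 CPM, and both overlapped the xct-2 libraries. PORB had 168, 134 and 131 CPM in xct-1 XCT::SpXAP5 and 250.2, 484 and 125 CPM in xct-1. CRD1 had 139, 121 and 91.8 CPM in xct-1 XCT::SpXAP5 and 157, 438 and 138 CPM in xct-1. In xct-1 replicate 2 was the highest library for both genes, and the XCT::SpXAP5 libraries, none of which is under 8 junction reads per gene read, spread less. PORC averaged 64.7 ± 11.9 CPM in xct-1 XCT::SpXAP5 and 104 ± 78.4 CPM in xct-1, and CAO averaged 77.0 ± 20.6 CPM in xct-1 XCT::SpXAP5 and 115 ± 36.1 CPM in xct-1 (SD, n = 3 each).

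Across the set, all 10 genes had a negative log2 fold change in xct-2 against Col-0, with a median of -0.63, against a median of -0.03 over all genes tested, of which 53.0% were negative. None of the 10 was called in xct-2 by edgeR's quasi-likelihood test, and DESeq2 likewise called 0. Over all genes edgeR called 0.0555%. Before adjustment 0 members were under 0.05 in edgeR, against 4.63% of all genes. In xct-2 XCT::XCT against xct-2, 9 of 10 were positive with a median of 0.39, against -0.02 over all genes, and GUN4 at -0.55 was the exception. There too edgeR and DESeq2 each called 0 members, where edgeR called 0.037% of all genes. Before adjustment 1 member (HEMA1) was under 0.05 in edgeR, as were 5.12% of all genes. These comparisons share the xct-2 libraries, so the lower level in xct-2 and the higher level with the transgene are not separate observations.

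Markers of shoot and root cells differed between the same genotypes, and their part in these shifts was not tested. The summed level of the 4 shoot markers was 3342 to 7055 CPM in xct-2 XCT::XCT, 2388 to 5084 CPM in xct-2, 2451 to 3549.6 CPM in xct-1 XCT::SpXAP5, 3907 to 7759 CPM in xct-1, 3688 to 10151 CPM in prl1-2 and 4273 to 8154 CPM in Col-0. The XCT::SpXAP5 libraries lay below all xct-1 libraries, and the other groups overlapped with those they are set against. In xct-2 against Col-0 the log2 fold changes were -0.70 for LHCB1.3, -1.14 for PSAD1, -0.97 for PSBO1 and -0.31 for RBCS1A, none of them called. With junction reads per gene read as a covariate, LHCB1.3 (-0.73, adjusted p = 0.0198, edgeR), PSAD1 (-1.14, adjusted p = 0.0160) and PSBO1 (-1.03, adjusted p = 0.00979) fell in xct-2, 3 of the 4. That fit called 2.42% of all genes lower in xct-2. RBCS1A was instead higher in prl1-2, at 3093 ± 2404 CPM against 988 ± 163 CPM in Col-0 (SD, n = 3 each; 1.62 with the covariate, adjusted p = 0.00171, edgeR). The summed level of the 6 root markers was 30.2 to 71.3 CPM in xct-2 XCT::XCT, 27.8 to 44.5 CPM in xct-2, 49.7 to 59.9 CPM in xct-1 XCT::SpXAP5, 30.8 to 70.3 CPM in xct-1, 61.8 to 82.1 CPM in prl1-2 and 45.2 to 83.2 CPM in Col-0. The xct-2 libraries lay below all Col-0 libraries in the root sum, unlike in the shoot sum. PHT1;1 fell in xct-2 with the covariate (-0.88, adjusted p = 0.0363, edgeR).

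In 3 other contrasts no member was called. In xct-1 against Col-0 the median was 0.07, against -0.02 over all genes. There 0 members were called by edgeR or DESeq2, and 0% of all genes were called. An unadjusted p under 0.05 in edgeR was reached by 0 members, against 1.42% of all genes. In xct-2 XCT::XCT against Col-0 the median was -0.32, against -0.04, with 0 members called by either tool and 0.0185% of all genes called. Before adjustment 0 members were under 0.05 in edgeR, against 1.98% of all genes. With XCT::SpXAP5 in xct-1, set against xct-1 alone, 8 of 10 were negative with a median of -0.64, against -0.08 over all genes. Here 0 members were called by either tool, and 0% of all genes were called. Before adjustment 1 member (GUN4) had a p under 0.05 in edgeR, as did 8.46% of all genes. In prl1-2 against Col-0 the median over the members was 0.00, and 0.07 without HEMA1, against -0.05 over all genes.

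**Figure D2:**
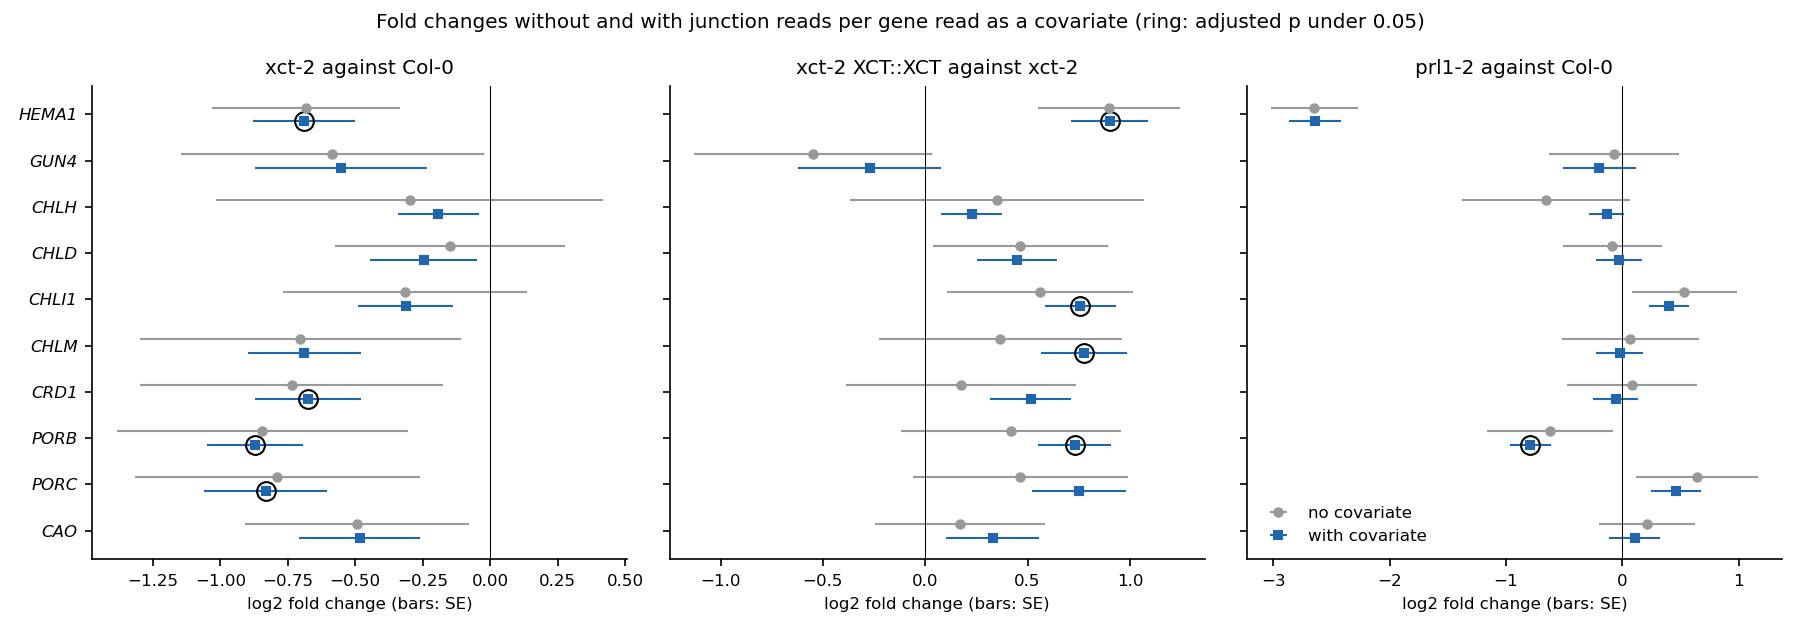
Log2 fold change of each gene (horizontal axis) in 3 contrasts, xct-2 over Col-0, xct-2 XCT::XCT over xct-2 and prl1-2 over Col-0, with bars of 1 SE to each side and rings around values with an adjusted p under 0.05, by the fit without a covariate and by the fit with junction reads per gene read of the library as a covariate. The bars are shorter with the covariate, and in xct-2 XCT::XCT over xct-2 the values of CHLM, CRD1, PORB and PORC are higher with it. HEMA1 stands alone at -2.65 in prl1-2 and carries no ring there, because its value was known when it was listed.

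Most members moved with the junction reads per gene read of a library. Over the 18 libraries, Pearson's r of the log2 level with this ratio was 0.976 for CHLH and 0.805 for CHLD, whose spliced transcripts of 4524 and 2549 bases are the longest of the set. It lay between -0.912 (CRD1) and -0.726 (CAO) for CAO, CHLM, CHLI1, PORB, CRD1, PORC and GUN4, with spliced lengths of 1988 to 994 bases, and was 0.273 for HEMA1, with 2083 bases. All libraries enter each r, and the genes share the libraries, so these are descriptions. The members' levels also varied together over these libraries: the log2 levels of CRD1 and CHLM had an r of 0.953, and those of CHLH and CRD1 an r of -0.868.

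**Figure D3:**
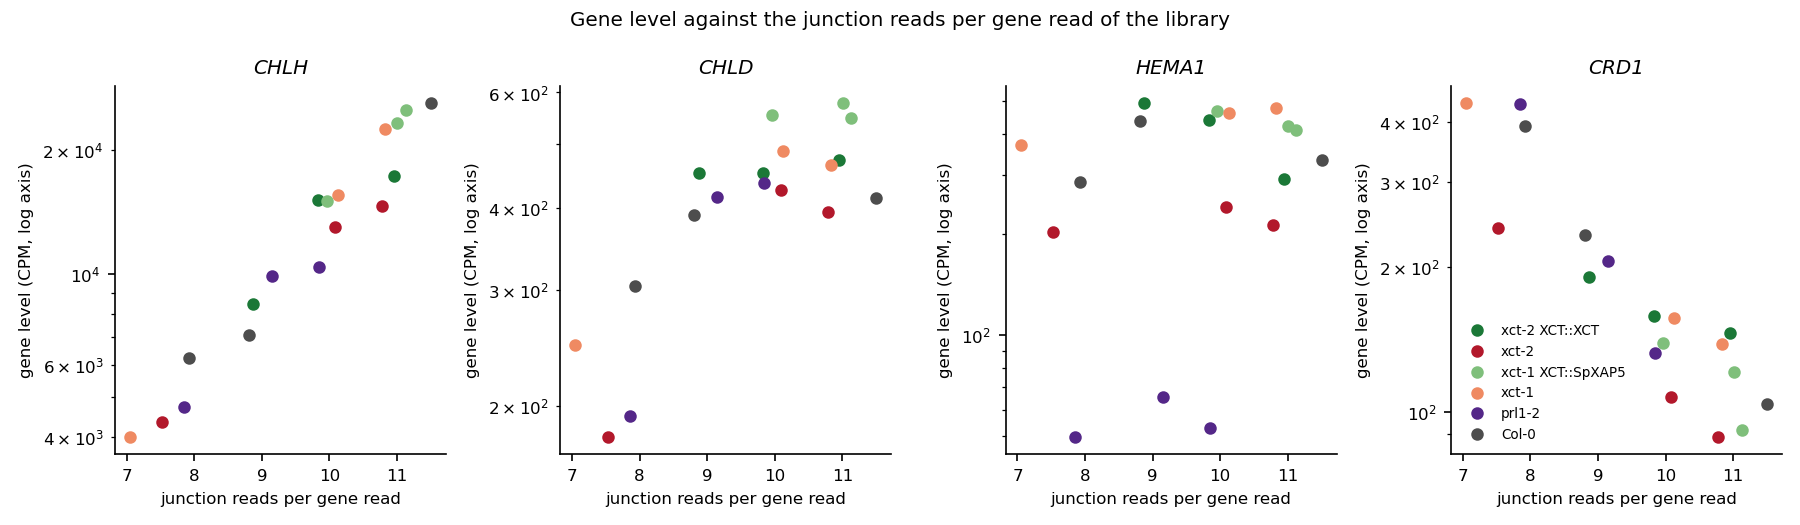
Level in CPM (log axis) of CHLH, CHLD, HEMA1 and CRD1 in each of the 18 libraries against the library's junction reads per gene read, coloured by genotype. CHLH rises with the ratio (r = 0.976) and CRD1 falls (r = -0.912), whereas HEMA1 (r = 0.273) is lowest in prl1-2, next lowest in xct-2, and overlaps between the other 4 genotypes.

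With this ratio as a covariate, an alternative to the fit above, 4 of 10 members fell in xct-2 against Col-0 by edgeR's quasi-likelihood test, where 2.42% of all genes were called lower. They were PORB (log2 fold change -0.87, SE 0.178, adjusted p = 0.00256), PORC (-0.83, SE 0.229, adjusted p = 0.0290), HEMA1 (-0.69, SE 0.189, adjusted p = 0.0290) and CRD1 (-0.67, SE 0.196, adjusted p = 0.0412). The median over the 10 was -0.61, against -0.03 over all genes. The ratio comes from the same counts as the levels, and whether genotype changes it was not tested. Over all genes this fit called 467 in xct-2 and 704 in prl1-2 against Col-0, where the fit without it called 6 and 26. PORB kept its call whichever of the 6 libraries was left out. HEMA1 lost it without Col-0 replicate 1, xct-2 replicate 2 or xct-2 replicate 3, and PORC and CRD1 each kept it in 1 of 6, so that 1 to 3 calls were left. PORC was called only without Col-0 replicate 2, and CRD1 only without Col-0 replicate 1.

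In xct-2 XCT::XCT against xct-2 the same covariate fit called 4 members higher, where 3% of all genes were called higher. They were HEMA1 (log2 fold change 0.90, SE 0.188, adjusted p = 0.00316, edgeR), CHLI1 (0.76, SE 0.174, adjusted p = 0.00767), PORB (0.73, SE 0.179, adjusted p = 0.0132) and CHLM (0.78, SE 0.212, adjusted p = 0.0268). HEMA1 kept its call in all 6 fits that left out a library, and CHLI1 lost it without xct-2 replicate 2. PORB lost it without xct-2 XCT::XCT replicate 1 or xct-2 replicates 1 or 3, and CHLM without xct-2 XCT::XCT replicate 3 or any of the xct-2 libraries. In prl1-2 against Col-0, with 3.17% of all genes called lower, PORB was called (-0.79, SE 0.179, adjusted p = 0.00628, edgeR), but not without prl1-2 replicate 3. In xct-2 XCT::XCT against Col-0, 5 members were positive and 5 negative with the covariate, with a median of -0.02 and 0 calls. For xct-1 XCT::SpXAP5 over xct-1 the covariate left 4 positive and 6 negative, with a median of -0.05, against 0.02 over all genes, and 0 calls, where the fit without it had a median of -0.64. For xct-1 over Col-0 it left 5 of each, with a median of -0.01 and 0 calls.

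Other genes of the tetrapyrrole pathway were listed as context, 33 in all, of which 28 were tested. Without the covariate edgeR called 0 of the 28 in every contrast. With it, 3 fell in xct-2 against Col-0, where 2.42% of all genes were called lower. The same 3 rose in xct-2 XCT::XCT against xct-2, where 3% of all genes were called higher. These 2 contrasts share the xct-2 libraries. CHLP, which encodes the geranylgeranyl reductase that supplies the phytyl tail, averaged 525 ± 175 CPM in xct-2 and 925 ± 245 CPM in Col-0 (SD, n = 3 each), and its covariate log2 fold change was -0.81 (adjusted p = 0.00569, edgeR). GLK1, a transcription factor that activates chlorophyll synthesis genes, averaged 43.9 ± 3.22 CPM in xct-2 and 103 ± 48.1 CPM in Col-0, a covariate log2 fold change of -1.19 (adjusted p = 0.0106, edgeR). HEME1, for uroporphyrinogen decarboxylase, had a covariate log2 fold change of -0.79 (adjusted p = 0.00816, edgeR). In xct-2 XCT::XCT against xct-2 the values were 1.10 for CHLP (adjusted p = 0.000238, edgeR), 1.64 for GLK1 (0.000319) and 0.76 for HEME1 (0.0108).

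In prl1-2 against Col-0 the covariate fit called 3 of the 28 lower, where 3.17% of all genes were called lower. NYC1, a chlorophyll b reductase that acts in chlorophyll breakdown, averaged 9.01 ± 5.25 CPM in prl1-2 and 53.0 ± 27.1 CPM in Col-0 (log2 fold change -2.70, adjusted p = 1.57e-06, edgeR). GSA1, which makes aminolevulinate in the step after HEMA1, had -0.86 (adjusted p = 0.0120), and HEME1 had -0.76 (adjusted p = 0.00913). Without the covariate the log2 fold change of NYC1 was -2.53 with an adjusted p of 0.121 in edgeR's quasi-likelihood test.

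The gene whose log2 level was most like that of HEMA1 over the 18 libraries was ABCI8 (Pearson's r = 0.905), followed by SIR (0.861), PRL1 itself (0.856), AT5G43020 (0.850) and PG2 (0.849). ABCI8 averaged 14.2 ± 4.03 CPM in prl1-2 and 83.1 ± 21.8 CPM in Col-0. Over the 15 libraries without prl1-2 the same r values were 0.127, 0.0671, -0.157, 0.449 and 0.497, so the likeness rested on the prl1-2 libraries. Among the members r with HEMA1 was highest for CHLD (0.431) and lowest for PORC (-0.431).

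Splicing was read as usage, the percentage of a gene's reads that carry a given junction. Of the 60 junctions of the members, 57 could be tested, with at least 20 reads on the junction and 20 outside it; the 3 others were a CRD1 junction and a PORB junction with 0 reads and a CAO junction with too few reads outside it. GUN4 has no annotated intron. In prl1-2 against Col-0, 12 of the 57 were called by edgeR's quasi-likelihood test and all 12 were used less in prl1-2. That is 21.1% of those tested, where 9.74% of all 50590 junctions tested were called and 9.56% were called lower. The median of gene reads behind a tested junction was 5979 for the members against 1565 over all. CHLH (184591 reads) and CHLD (5979 reads) weigh in this median, and the other genes with calls had 1331 (CAO) to 3824 (PORB) reads. Among junctions of genes with at least 1000 reads 11.5% were called lower.

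CAO, the oxygenase, had 3 of the 12, counting introns from the 5′ end. Its percentages rest on 41, 115 and 60 gene reads in prl1-2 and 127, 79 and 25 in Col-0. Its intron 7 (chromosome 1, 16849207 to 16849282, TAIR10) was used by 70.7, 87.8 and 81.7% of reads in prl1-2, against 96.1, 96.2 and 96.0% in Col-0. Its intron 4 was used by 78.0, 88.7 and 80.0% in prl1-2, against 96.9, 97.5 and 96.0% in Col-0. Its intron 2 was used by 80.5, 87.0 and 80.0% in prl1-2, against 97.6, 93.7 and 92.0% in Col-0. In each the prl1-2 libraries lay below all Col-0 libraries, and the log2 changes in odds were -2.42 (SE 0.582, adjusted p = 0.0120, edgeR), -2.60 (SE 0.614, adjusted p = 0.0108) and -2.05 (SE 0.610, adjusted p = 0.0351). Intron 1 of CAO, the one least used in Col-0, had 80.5, 92.2 and 81.7% in prl1-2, against 94.5, 83.5 and 88.0% in Col-0, which overlapped.

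**Figure D4:**
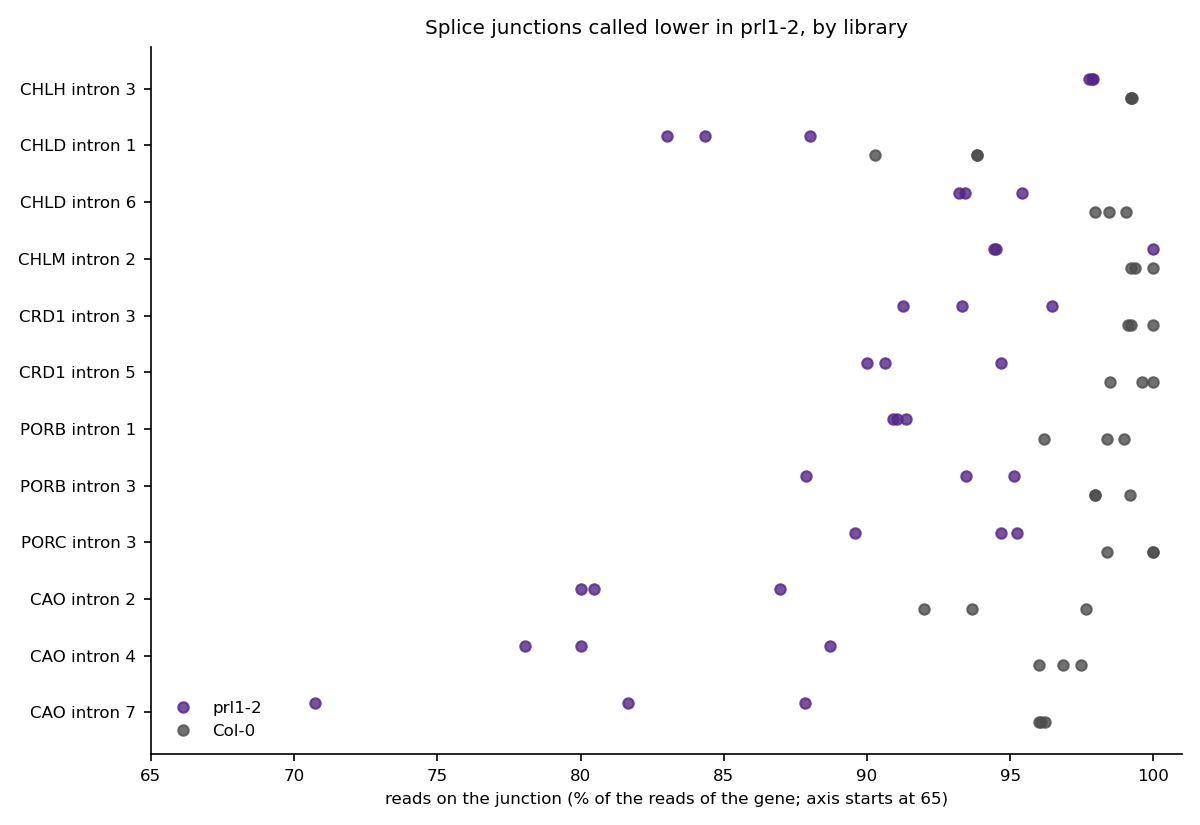
Usage in percent of gene reads of the 12 introns called lower in prl1-2, by gene and intron number, with the 3 prl1-2 libraries above the 3 Col-0 libraries of each intron. The CAO introns reach 70.7% in prl1-2 and the CHLH intron stays above 97% in both genotypes.

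CRD1, the cyclase subunit, had 2 of the 12. Its intron 5 (chromosome 3, 21077927 to 21078005) was used by 90.0, 94.7 and 90.6% in prl1-2, against 99.6, 98.5 and 100% in Col-0 (log2 change in odds -3.12, SE 0.667, adjusted p = 0.00602, edgeR). Its intron 3 was used by 93.3, 96.4 and 91.2% in prl1-2, against 99.2, 99.1 and 100% in Col-0 (-2.91, SE 0.844, adjusted p = 0.0311). Neither overlapped between the genotypes. The CRD1 percentages rest on 60, 394 and 160 gene reads in prl1-2 and 252, 334 and 62 in Col-0.

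PORB also had 2, the reductase genes giving 3 in all. Intron 3 of PORB (chromosome 4, 13726859 to 13726951) was used by 87.9, 93.4 and 95.1% in prl1-2, against 98.0, 99.2 and 98.0% in Col-0 (-2.31, SE 0.543, adjusted p = 0.0106, edgeR). Intron 1 of PORB was used by 90.9, 91.4 and 91.1% in prl1-2, against 96.2, 98.4 and 99.0% in Col-0 (-1.98, SE 0.519, adjusted p = 0.0187). Intron 3 of PORC was used by 89.6, 95.2 and 94.7% in prl1-2, against 98.4, 100 and 100% in Col-0 (-2.96, SE 0.872, adjusted p = 0.0351). All 3 introns were without overlap. The PORC percentages rest on 48, 231 and 113 gene reads in prl1-2 and 124, 116 and 44 in Col-0.

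The chelatase genes had 3 of the 12. Intron 3 of CHLH (chromosome 5, 4388509 to 4388597) was used by 97.9, 97.9 and 97.7% in prl1-2, against 99.2% in each Col-0 library (-1.51, SE 0.280, adjusted p = 0.00226, edgeR). This is a small difference in percentage points, measured on 4714, 4289 and 7685 CHLH reads in prl1-2, against 7665, 5314 and 15579 in Col-0. Intron 6 of CHLD (chromosome 1, 2698204 to 2698626), with 423 bases the longest of the set, was used by 93.4, 95.4 and 93.2% in prl1-2, against 99.1, 98.5 and 98.0% in Col-0 (-2.12, SE 0.454, adjusted p = 0.00624). Intron 1 of CHLD (chromosome 1, 2696811 to 2697014) was used by 84.3, 88.0 and 83.0% in prl1-2, against 93.8, 93.8 and 90.3% in Col-0 (-1.17, SE 0.348, adjusted p = 0.0343). No library overlapped in these 3 introns.

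The last of the 12, intron 2 of CHLM, was used by 100, 94.5 and 94.4% in prl1-2, against 99.4, 99.2 and 100% in Col-0 (-2.76, SE 0.860, adjusted p = 0.0454, edgeR), and here the libraries overlapped. The CHLM percentages rest on 46, 236 and 144 gene reads in prl1-2 and 159, 257 and 44 in Col-0. HEMA1 had no called junction. Its intron 1 was used by 79.2, 100 and 92.2% in prl1-2, from 24 to 51 reads a library, against 96.0, 97.6 and 93.0% in Col-0. In CHLI1 intron 2 the values were 97.4, 97.4 and 98.0% in prl1-2, against 99.1, 97.3 and 95.5% in Col-0.

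The calls for CHLH intron 3, CHLD intron 6, CRD1 intron 5 and PORB intron 3 held whichever of the 6 libraries was left out. CAO intron 4 lost its call without Col-0 replicate 1, CAO intron 7 without replicate 1 of either genotype, and CAO intron 2 without Col-0 replicate 1 or prl1-2 replicates 1 or 3. PORB intron 1 lost it without replicate 2 of either genotype or prl1-2 replicate 3. CHLD intron 1 and CRD1 intron 3 lost it without Col-0 replicates 1 or 2 or prl1-2 replicates 1 or 3, PORC intron 3 without Col-0 replicates 2 or 3 or prl1-2 replicates 1 or 3, and CHLM intron 2 in 5 of the 6 fits, all but the one without prl1-2 replicate 1. DESeq2 on the same reads called 2 of the 57 member junctions in prl1-2 (3.51%), where it called 2.97% of all junctions, so by that tool the members were near the background. In the authors' deposited table of prl1-2 over Col-0, 19 of 107 member features had an adjusted p under 0.05, which is 17.8%, against 6.48% of all features. All 12 junctions above were among them, from the same libraries.

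Taking every intron used by at least 50% of the gene's reads in Col-0 gave 42 introns in 9 of the genes. Mean usage was lower in prl1-2 for 34 of them (81.0%), and the prl1-2 libraries lay below all Col-0 libraries for 19 (45.2%), with a median difference of -3.21 percentage points. Over all such introns in all genes, 76.9% were lower in mean and 23.9% did not overlap, and in genes with at least 1000 reads 79.1% were lower and 32% did not overlap. The share lower in mean was thus near that of other genes. Introns without overlap were 4 of 4 in CRD1, 3 of 3 in PORB, 4 of 8 in CAO, 2 of 4 in each of CHLH and PORC, 4 of 14 in CHLD, and 0 in HEMA1, CHLI1 and CHLM. Averaged over its introns, CAO had 13.2 ± 4.48% of reads outside the junctions in prl1-2 and 4.79 ± 1.56% in Col-0 (SD, n = 3 each). The values were 6.18 ± 2.08% in prl1-2 and 0.614 ± 0.681% in Col-0 for CRD1, and 7.55 ± 1.96% in prl1-2 and 1.97 ± 0.776% in Col-0 for PORB. The 12 called introns were 76 to 423 bases long with a median of 86.5, and all 42 were 66 to 423 with a median of 91.

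A read that ends before an intron also counts as not using it. Usage was therefore also taken over the smaller of the read counts of the exon bins on either side. This alternative was chosen after the data were seen, and the counts do not tell which reads cover both bins. By that measure 23 of the 41 member junctions that could be tested were called lower in prl1-2, where 34.6% of all 33657 junctions tested were. Introns 3 and 4 of CHLH had the lowest adjusted p. Intron 4 was used by 97.4 ± 0.14% in prl1-2 and 99.3 ± 0.05% in Col-0 (SD, n = 3 each; log2 change in odds -1.96, SE 0.149, adjusted p = 3.23e-23, edgeR), and intron 3 by 98.1 ± 0.09% in prl1-2 and 99.6 ± 0.05% in Col-0 (-2.19, SE 0.166, adjusted p = 3.23e-23). Over all gene reads intron 4 had 94.2, 94.4 and 94.2% in prl1-2, against 95.6, 96.0 and 96.0% in Col-0, with an adjusted p of 0.0853.

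In the other genotypes 0 of the 57 junctions were called by edgeR, and DESeq2 called 0 as well. An unadjusted p under 0.05 was reached by 2 junctions (3.51%) in xct-2 against Col-0, where 9.90% of all junctions tested reached it, and by 1 (1.75%) in xct-1 against Col-0, where 6.10% did. The counts were 1 (1.75%, against 3.69% of all) in xct-2 XCT::XCT against Col-0, 7 (12.3%, against 9.58%) in xct-2 XCT::XCT against xct-2 and 5 (8.77%, against 4.52%) for xct-1 XCT::SpXAP5 over xct-1. Over all junctions tested, the called share was 2.52% in xct-2 against Col-0, 1.08% in xct-1 against Col-0, 0.00198% in xct-2 XCT::XCT against Col-0, 2.63% in xct-2 XCT::XCT against xct-2 and 0% for xct-1 XCT::SpXAP5 over xct-1. Of the 42 introns, 20 (47.6%) had a lower mean in xct-2 than in Col-0, against 52.2% of all such introns, and 3 (7.14%) lay below Col-0 without overlap, against 7% of all. In xct-1 20 (47.6%, against 51.5%) were lower in mean and 2 (4.76%, against 4.74%) lay below Col-0 without overlap. The xct-2 XCT::XCT libraries had 12 (28.6%, against 42.8%) lower in mean, and 3 of 42 lay above Col-0 without overlap, where 2.37% of all did. In xct-1 XCT::SpXAP5 20 (47.6%, against 41.8%) were lower in mean, and 3 of 42 lay above Col-0 without overlap, where 3.33% of all did. In xct-2 and xct-1 the shares without overlap were thus near those of all genes.

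CHLD intron 1 came nearest to a call in xct-2. It was used by 94.3, 94.5 and 92.7% in xct-2 XCT::XCT and 87.0, 87.1 and 87.1% in xct-2, without overlap (log2 change in odds 1.18, SE 0.340, adjusted p = 0.0712, edgeR). Col-0, at 93.8, 93.8 and 90.3%, also lay above every xct-2 library (xct-2 against Col-0 -0.93, SE 0.345, adjusted p = 0.250). It had 92.9, 93.6 and 90.4% in xct-1 XCT::SpXAP5 and 92.9, 90.4 and 90.3% in xct-1, which overlapped. Over the smaller flanking exon bin count it was used by 95.7 ± 0.88% in xct-2 XCT::XCT, 88.9 ± 1.82% in xct-2 and 96.2 ± 2.81% in Col-0. By that measure it was called in both contrasts, with log2 changes in odds of 1.52 (SE 0.297, adjusted p = 6.06e-05, edgeR) in xct-2 XCT::XCT against xct-2 and -1.77 (SE 0.334, adjusted p = 3.20e-05) in xct-2 against Col-0. Over all junctions so measured 4.23% were called higher in xct-2 XCT::XCT and 4.31% lower in xct-2. The same measure called 1 more member junction in xct-2, HEMA1 intron 1 (-1.36, SE 0.429, adjusted p = 0.0412), used by 92.5 ± 1.27% in xct-2 and 96.7 ± 3.28% in Col-0.

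**Figure D5:**
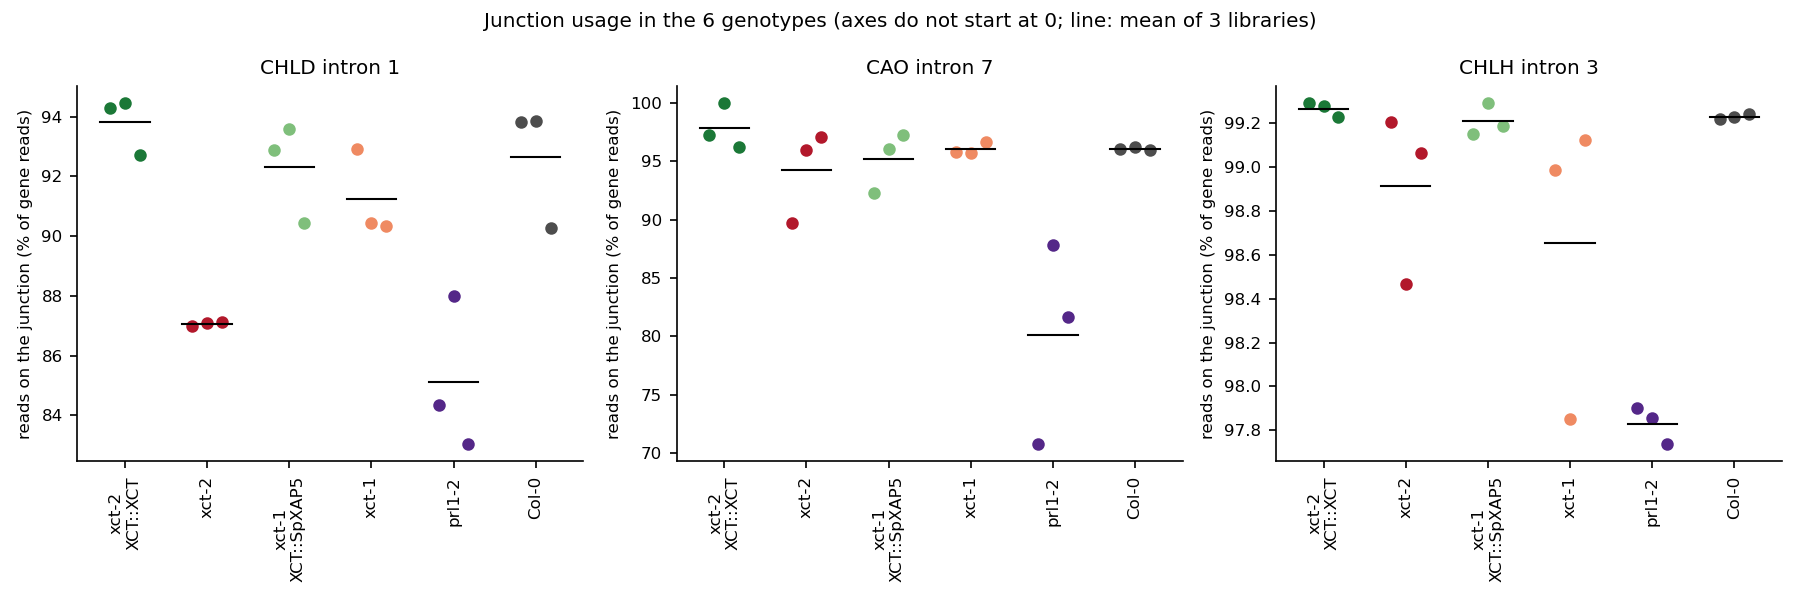
Usage in percent of gene reads of CHLD intron 1, CAO intron 7 and CHLH intron 3 in the 18 libraries by genotype, each point a library and each bar the mean of 3. CHLD intron 1 is low in xct-2 (87.1%) and prl1-2 (85.1%), whereas CAO intron 7 and CHLH intron 3 are low in prl1-2.

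PORC intron 2 was used by 96.7, 92.1 and 97.0% in xct-2 XCT::XCT, 91.7, 87.7 and 85.7% in xct-2, and 97.6, 93.1 and 97.7% in Col-0. All xct-2 libraries lay below both other genotypes, but the difference from Col-0 missed the threshold (-1.61, adjusted p = 0.282, edgeR).

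Unannotated junctions were found in CHLH (8) and CHLD (2), and in none of the other 8 genes. Of the 10, 3 had a 3′ site that differed from the annotated one, 5 a 5′ site, 1 both, and 1 joined annotated sites in an unannotated pair. The CHLD junction used most ends 5 bases from an annotated 3′ site (chromosome 1, 2697770 to 2697876). It took 1.97, 2.49 and 1.77% of reads in xct-2 XCT::XCT, 2.96, 4.78 and 7.59% in xct-2, 7.58, 2.29 and 4.32% in prl1-2, and 2.37, 1.92 and 4.86% in Col-0. The xct-2 XCT::XCT libraries lay below those of xct-2 (log2 change in odds -1.30, adjusted p = 0.245, edgeR), and the other groups overlapped with Col-0. In CHLH the most used one, with a 3′ site 4 bases away, took 0.488, 0.490 and 0.651% in prl1-2, against 0.705, 0.489 and 0.571% in Col-0. Over its 8 unannotated junctions CHLH had 1.80% of pooled reads in prl1-2 and 1.86% in Col-0.

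Of the 72 exon bins 45 were tested, and edgeR called 0 in each of the 6 contrasts. The shares called over all 31056 bins tested were 0.0483% in xct-2 against Col-0, 0% in xct-1 against Col-0, 0.0934% in prl1-2 against Col-0, 0% in xct-2 XCT::XCT against Col-0, 0.0708% in xct-2 XCT::XCT against xct-2 and 0% for xct-1 XCT::SpXAP5 over xct-1. An unadjusted p under 0.05 was reached by 1 bin in xct-2 against Col-0, 5 in prl1-2 against Col-0 (11.1%, against 5.01% of all bins), 2 in xct-2 XCT::XCT against xct-2, and 0 in the others; no second tool was run on bins. The lowest p belonged to the CAO bin that spans intron 7 as a retained intron, chosen for naming after its values were seen. It took 29.3, 10.4 and 16.7% of reads in prl1-2, against 3.15, 3.80 and 4.00% in Col-0 (log2 change in odds 2.45, SE 0.641, adjusted p = 0.257, edgeR). The bin covers the same bases as that intron, and the groups did not overlap. Also named after its values were seen, a bin of 145 bases that is exon in 1 of the annotated CHLM transcripts took 39.1, 37.7 and 36.8% in prl1-2, against 17.6, 24.5 and 15.9% in Col-0 (1.31, adjusted p = 0.731), also without overlap. In the authors' deposited table its adjusted p was 0.00802.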

How the data were processed

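RNA of 18 whole-seedling libraries (6 genotypes, 3 replicates each) was read by PacBio Iso-Seq. Per the submitters' processing notes reads were mapped with minimap2 2.17 to TAIR10; the counting method is not given in the sources used here. Raw counts per gene, junction and exon bin were deposited for each library, with the authors' tables of comparisons and adjusted p-values, used only where named as theirs. Coordinates are those of the deposited tables, counted from 1. Gene names came from a RefSeq table, in which all 10 members matched; no sequence was used here.

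Gene counts were tested with edgeR 4.0.16 in R 4.3.3 (quasi-likelihood test, TMM scaling, filterByExpr) in 1 fit over 18 libraries, with Benjamini-Hochberg adjustment over all genes tested. Junctions and exon bins, separate families, were tested as reads on the feature against the other reads of the gene, with a term per library and at least 20 reads on each side. Levels are reads per 1000000 TMM-scaled gene reads (CPM); Python 3.11.15 collected them. DESeq2 1.42.0, other filters, leaving out each library, a replicate block and junction reads per gene read as a covariate were alternatives. P-values measure the spread between these libraries. The main gene and junction tests were also run on simulated counts, drawn without a factor shared by the genes of a library. That check therefore does not cover the variation with junction reads per gene read described above. The exon bin, covariate and flanking bin fits were not simulated.

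All members were described. Junctions and bins were named when called, and otherwise as each gene's least used annotated or most used unannotated junction; other pathway genes were named when called in a fit; the 5 genes most like HEMA1 were named by Pearson's r. The members, the lists and this rule were chosen with earlier results of these data known.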

Additional observations from a re-analysis of the deposited data

How the results depend on the processing

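Of 24 counts of member genes, junctions and exon bins called, 15 stayed within 1.5 times under every alternative run, and 235 of 258 alternative values did. Most of these counts were 0, so that they stayed says little about the counts above 0. With junction reads per gene read as a covariate, gene calls were 4 in xct-2 against Col-0 (4.32% of all genes). They were 1 to 3 when a library was also left out. In xct-2 XCT::XCT against xct-2 they were 4 (4.69% of all genes), and 2 to 5 without a library. In prl1-2 against Col-0 PORB was called, and it kept this call in 5 of 6 fits that left out a library. The value of HEMA1 in prl1-2 was known beforehand, so its calls there are left aside. As a description, its log2 fold change lay between -2.79 and -2.48 over the alternatives. The 12 junction calls in prl1-2 were 2 of 57 with DESeq2 (2.97% of all junctions). They were 23 of 41 over the smaller flanking bin count (34.8% of all). They were 0 when the gene count was used as an offset (0.243% of all), and 6 to 11 when a library was left out (3.82 to 8.24% of all). The flanking bin count gave 2 junction calls in xct-2 against Col-0 (4.61% of all) and 1 in xct-2 XCT::XCT against xct-2 (4.63% of all). In the latter contrast a minimum of 50 reads (4.47% of all) and the fit of only the 6 libraries (4.69% of all) also gave 1. The cause was not tested. Covariate fits without a library, the flanking bin count and fits without the 4 libraries under 8 junction reads per gene read were chosen after seeing the data. The last left 11 of 51 member junctions called in prl1-2 (11.6% of all junctions) and, with HEMA1 in prl1-2 left aside, no other member feature. Same-numbered replicates deviated together (r over 0.1) in 8 of 18 pairs. For xct-2, xct-1 and prl1-2 with Col-0 this r was 0.760, 0.796 and 0.654 in replicate 2. It was 0.655, 0.740 and 0.165 in replicate 3 and -0.211, -0.134 and -0.146 in replicate 1. The labels give no pairing, and the main fits treated the libraries as unpaired. With a replicate block 11 member junctions were called in prl1-2 (9.72% of all junctions) and 0 in the other contrasts. No member gene was called by it, with HEMA1 in prl1-2 left aside. Depth limits GUN4 (433 reads), HEMA1 in prl1-2 and the usage values of CAO (1331 reads) most. Single libraries of PORC, CHLM and CRD1 were also shallow, with 44, 44 and 62 reads in Col-0 replicate 3.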
